A study of Mus musculus with 12 samples.

Results

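The immediate early genes described here are *Fos*, *Fosb*, *Jun*, *Junb*, *Jund*, *Fosl2*, *Atf3*, *Egr1*, *Ier2* and *Myc*, chosen by gene symbol. All 10 of the 10 were among the 18926 genes of the deposited tables, and all 10 passed the filter on low counts that left 18053 genes for testing. RNA was measured in 12 libraries of S1, a mouse gastric cancer line from a ChetPS tumor, grown as tumorspheres, with 3 libraries in each of 4 groups labelled control, *Nf2*-KO, *Rasa1*-KO and *Rasa1*/*Nf2* double-KO. All groups carried Cas9 and a lentiviral guide, non-targeting or empty backbone in the controls, and were seeded as single cells in low-attachment plates in serum-free medium with epidermal growth factor or in a commercial tumorsphere medium. The labels also call the cells monolayer cells, and the legend to the study's plot of these RNA profiles calls each one a technical replication. No label says that they came from separate cultures, so every n counts libraries, and the errors and p-values below measure only the spread between libraries, which may be technical.

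Immediate early genes are transcribed within minutes of a growth factor, stress or adhesion signal, without new protein synthesis, and most of their mRNAs decay quickly. Kinases of the ERK, JNK and p38 pathways act on factors already bound at these genes, such as SRF with its ternary complex factors and CREB. AP-1 is a dimer of a JUN protein (*Jun*, *Junb*, *Jund*) with another JUN, a FOS protein (*Fos*, *Fosb*, *Fosl1*, *Fosl2*) or an ATF protein such as ATF3. RASA1 is a GTPase-activating protein that turns RAS off, and NF2 (Merlin) acts upstream of the Hippo kinases that restrain YAP, a coactivator whose sites often lie beside AP-1 sites.

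The targeted genes were read first. *Nf2* mRNA was 58.2 ± 2.82 CPM (read counts scaled to a common library total; mean ± SD, n = 3) in control, 13.6 ± 0.631 in *Nf2*-KO, 11.9 ± 0.253 under the *Rasa1*-KO label and 58.9 ± 3.30 under the double-KO label. *Nf2* went against these last labels, and the names of the deposited tables also exchange these groups. *Rasa1* mRNA was 71.3 ± 9.54 CPM in control, 98.5 ± 2.21 in *Nf2*-KO, 31.9 ± 2.27 under the *Rasa1*-KO label and 20.5 ± 2.80 under the double-KO label. Groups below are called by their labels, and what changes with exchanged labels is given where it matters. Total counts were 43818139 to 96674463 per library. The control library whose title has no number and the labelled double-KO library 1, whose table also has no number, stood apart from the others of their groups, and the members' calls are given with and without both. Both were picked for lying apart in these same data, so p-values of the fit without them are descriptive.

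Promoter windows show the DNA in front of these genes. RefSeq windows (GRCm38.p6) were at hand for 7 members, *Atf3*, *Fos*, *Fosb*, *Fosl2*, *Jun*, *Junb* and *Jund*. The 250 bases before the start of each window's transcript are printed for 3 genes that were low in both libraries that stand apart (*Fos*, *Fosb*, *Atf3*) and for *Jun* and *Junb*, which moved in opposite directions between groups. Capitals mark TGACG on either strand, the core of the site bound by CREB and ATF proteins, and TATAAA. For *Fosb* the last 73 of the 250 bases lie inside the annotated gene, which reaches farther out than the transcript used for the window, and only the 177 bases before the gene are printed.
Fos, chr12:85473640-85473889, plus strand: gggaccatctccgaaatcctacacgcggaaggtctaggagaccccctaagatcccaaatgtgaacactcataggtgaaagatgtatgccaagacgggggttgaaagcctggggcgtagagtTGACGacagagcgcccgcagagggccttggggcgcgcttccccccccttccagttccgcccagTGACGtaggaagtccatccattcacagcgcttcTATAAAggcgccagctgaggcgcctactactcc
Fosb, chr7:19310119-19310295, minus strand: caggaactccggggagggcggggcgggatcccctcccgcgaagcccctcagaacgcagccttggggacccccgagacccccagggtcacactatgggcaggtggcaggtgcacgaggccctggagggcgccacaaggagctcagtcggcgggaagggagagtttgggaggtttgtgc
Atf3, chr1:191183334-191183583, minus strand: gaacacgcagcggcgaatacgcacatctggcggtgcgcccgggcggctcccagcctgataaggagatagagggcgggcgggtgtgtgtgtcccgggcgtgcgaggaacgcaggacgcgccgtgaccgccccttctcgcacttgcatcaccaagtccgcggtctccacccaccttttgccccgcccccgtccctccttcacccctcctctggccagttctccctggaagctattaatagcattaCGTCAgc
Junb, chr8:84978749-84978998, minus strand: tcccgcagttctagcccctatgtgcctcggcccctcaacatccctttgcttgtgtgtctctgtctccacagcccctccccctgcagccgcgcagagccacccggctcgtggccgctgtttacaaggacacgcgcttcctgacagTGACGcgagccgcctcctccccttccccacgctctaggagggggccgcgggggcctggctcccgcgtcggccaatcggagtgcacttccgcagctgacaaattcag
Jun, chr4:95052223-95052472, minus strand: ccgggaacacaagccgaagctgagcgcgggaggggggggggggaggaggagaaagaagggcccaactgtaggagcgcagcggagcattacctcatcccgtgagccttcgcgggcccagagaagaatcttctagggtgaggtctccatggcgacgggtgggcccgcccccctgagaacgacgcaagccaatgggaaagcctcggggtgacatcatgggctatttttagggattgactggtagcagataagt

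TGACG was present in 4 of the 7 windows and in 17.8% of all 32851 windows of this length. *Fos* held it at 129 to 125 and again at 66 to 62 bases before the start, *Fosb* at 60 to 56 (inside the annotated gene), *Junb* at 106 to 102 and *Atf3* at 7 to 3. TATAAA was found in *Fos* only among the 7, 33 to 28 bases before the start, against 12.4% of all windows. The EGR site GCGNGGGCG stood in *Fosb*, again inside the gene, and in *Fosl2*, against 4.7% of all windows. The CArG box, the site of SRF, the full site TGACGTCA, the AP-1 site TGANTCA, the MYC site CACGTG and the TEAD letters CATTCC were in 0 of the 7 windows on either strand, against 1.47%, 1.55%, 6.75%, 6.02% and 12.6% of all windows. These are exact matches of letters, chosen after the sequences were read, and sites farther from the start lie outside the windows. Near matches were not counted, such as TGACATCA in the printed *Jun* window, which is close to TGACGTCA.

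The level of each gene was compared per unit length, as FPKM (fragments scaled by gene length and library total). *Junb* was highest of the 10 in every group, with 178 ± 29.3 FPKM in control and 312 ± 10.0 in labelled *Rasa1*-KO (n = 3 each). No library of another member reached it. *Fos* came next at 77.5 ± 37.8 FPKM in control, and *Jund* followed at 48.6 ± 6.25, with overlapping libraries. These 3 were the highest in every group. *Ier2*, *Jun*, *Fosl2*, *Atf3*, *Egr1* and *Myc* lay between 14.0 and 37.7 FPKM in control with overlapping libraries, and *Fosb* averaged 11.8 ± 10.1. *Atf3* took the next place after *Jund* in *Nf2*-KO (39.7 ± 2.20 FPKM) and labelled *Rasa1*-KO (41.2 ± 0.637), and *Fosb* the last place in all groups. All 10 genes had reads in every library, which holds for every gene listed in the deposited tables. The lowest value was 0.251 FPKM, for *Fosb* in the control library without a number.

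The control libraries differed widely in these genes. For 6 of the 10 (*Fos*, *Fosb*, *Egr1*, *Ier2*, *Atf3* and *Myc*) the highest control library was more than 2-fold above the lowest, against 36.1% of the 18053 genes tested. The same 6 genes spread more than 2-fold among the labelled double-KO libraries, against 17.1% of genes, while 0 of the 10 did so in *Nf2*-KO (9.33% of genes) or in labelled *Rasa1*-KO (9.02%). The median SD of log2 CPM over the 10 genes was 0.87 in control and 0.84 in labelled double-KO, beside 0.39 and 0.18 over all genes. In *Nf2*-KO and labelled *Rasa1*-KO the 10 genes had medians of 0.08 and 0.11, beside 0.12 and 0.11 over all genes.

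**Figure D1:**
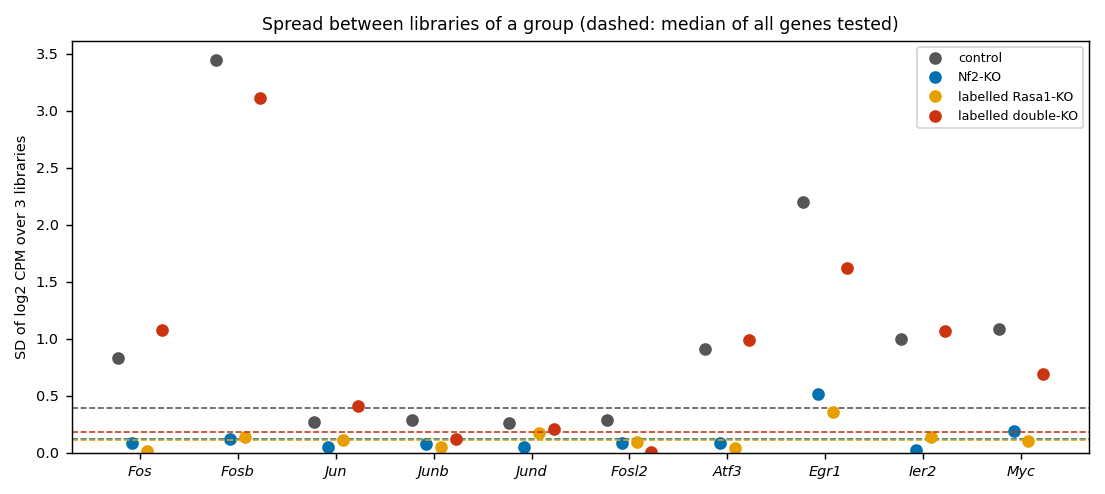
SD of log2 CPM (y axis) over the 3 libraries of each group for each of the 10 genes (x axis), coloured by group, with dashed lines at the median SD of all 18053 genes tested. Control and labelled double-KO points rise to 3.44 and 3.11 for Fosb, while the Nf2-KO and labelled Rasa1-KO points stay low, with Egr1 highest at 0.52 and 0.35.

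*Fosb*, an AP-1 subunit that is silent in most unstimulated cells, had the largest spread. In control it was at 1.04 CPM in the library without a number and at 63.1 and 69.7 in libraries 1 and 2. In the libraries labelled double-KO it was at 1.41, 63.2 and 57.6 CPM. None of the 18053 genes tested had a larger SD of log2 CPM in the control libraries or in the labelled double-KO libraries. These low values rested on 98 and 129 counts, against 3512 to 4720 in the other libraries of both groups. *Fosb* was at 35.3, 31.1 and 30.1 CPM in *Nf2*-KO and at 29.1, 35.3 and 31.6 in labelled *Rasa1*-KO. The 6 libraries of these last groups thus lay close together, below the numbered control libraries and far above the control library without a number.

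*Egr1*, a zinc finger factor induced through SRF, followed the same order. Its control libraries were at 6.41, 82.6 and 98.2 CPM, and its labelled double-KO libraries at 9.43, 66.7 and 64.8. Only 0.737% and 0.487% of genes had a larger SD in these groups. In *Nf2*-KO it was at 44.8, 26.0 and 22.7 CPM and in labelled *Rasa1*-KO at 29.5, 34.8 and 21.5. All 6 lay between the low and the high control libraries.

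*Fos*, the FOS protein that pairs with JUN proteins early in a response, was at 79.2, 227 and 199 CPM in control and at 70.0, 255 and 255 in labelled double-KO. It was at 175, 175 and 194 CPM in *Nf2*-KO and at 206, 202 and 206 in labelled *Rasa1*-KO. The library without a number and labelled double-KO library 1 were again the lowest of the 12. *Ier2*, a small nuclear protein of the early response (chr8:84661331-84662852), was at 23.3, 67.4 and 85.4 CPM in control and at 17.0, 64.1 and 58.0 in labelled double-KO. *Ier2* stayed between 40.7 and 42.2 CPM in *Nf2*-KO and between 39.2 and 47.2 in labelled *Rasa1*-KO. As with *Egr1*, these 6 libraries sat inside the range of the controls.

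*Atf3*, a stress-induced ATF factor, and *Myc*, the growth-promoting factor that dimerizes with MAX (chr15:61985341-61990361), were low in the same libraries but had another order between groups. *Atf3* was at 17.8, 57.1 and 48.9 CPM in control and at 16.6, 55.8 and 52.8 in labelled double-KO. It was at 80.3, 86.6 and 89.7 CPM in *Nf2*-KO and at 92.6, 90.1 and 95.0 in labelled *Rasa1*-KO, above every control and labelled double-KO library. *Myc* was at 12.5, 36.7 and 53.5 CPM in control and at 18.7, 43.2 and 42.4 in labelled double-KO. It was at 83.7, 66.9 and 66.1 CPM in *Nf2*-KO and at 73.0, 83.6 and 74.2 in labelled *Rasa1*-KO, also above all libraries of the other groups.

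The remaining members did not drop 2-fold in these libraries. *Jun*, the inducible AP-1 subunit that activates its own gene, was at 74.3, 107 and 97.7 CPM in control, 63.9, 61.8 and 65.9 in *Nf2*-KO, 44.2, 51.5 and 47.6 in labelled *Rasa1*-KO and 48.3, 80.4 and 77.4 in labelled double-KO. *Junb*, a JUN protein that can oppose *Jun*, was at 362, 395 and 269 CPM in control, 549, 540 and 598 in *Nf2*-KO, 635, 643 and 679 in labelled *Rasa1*-KO and 505, 599 and 561 in labelled double-KO. The 9 knockout libraries were all above the 3 controls for *Junb*. *Fosl2*, a slower and longer-lived FOS protein, was at 109, 153 and 153 CPM in control, 205, 187 and 182 in *Nf2*-KO, 124, 141 and 127 in labelled *Rasa1*-KO and 156, 157 and 155 in labelled double-KO. *Jund*, the most constant JUN gene in many cells, ranged only from 119 to 202 CPM over the 12 libraries, and its groups overlapped in all 6 comparisons.

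**Figure D2:**
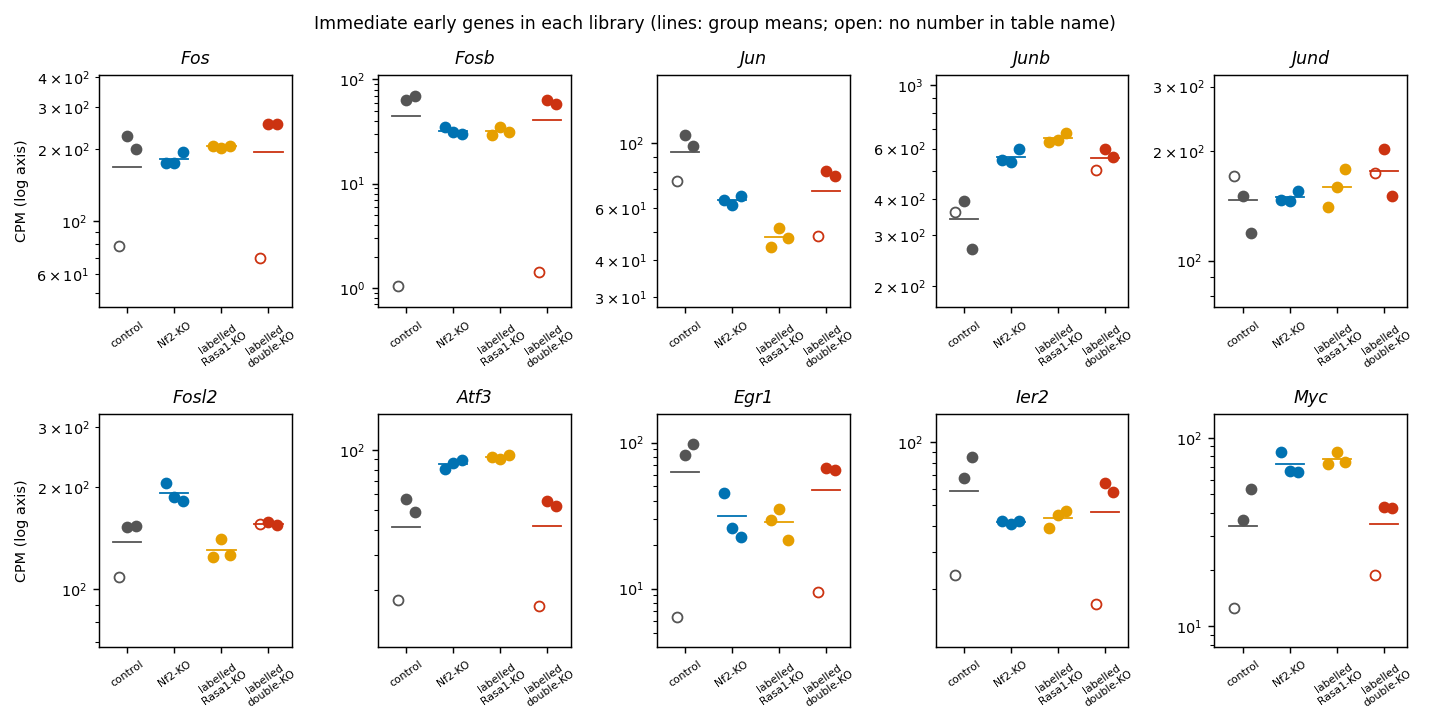
Each panel gives 1 gene, with TMM-scaled CPM of each library on a log y axis and the 4 groups on the x axis, lines at the group means, and open circles for the control library without a number and labelled double-KO library 1. The open circles lie far below the other points of their groups for Fosb (1.04 and 1.41 CPM) and Egr1 (6.41 and 9.43 CPM), and close to them for Junb and Jund.

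The size of the drop was set out as the mean CPM of the other libraries of the group over the CPM of the low library. In the control library without a number *Fosb* was 63.8 times lower, *Egr1* 14.1, *Myc* 3.62, *Ier2* 3.28, *Atf3* 2.98 and *Fos* 2.69 times lower. In labelled double-KO library 1 *Fosb* was 42.8 times lower, *Egr1* 6.98, *Fos* 3.65, *Ier2* 3.60, *Atf3* 3.27 and *Myc* 2.28 times lower. Counted against both other libraries of its group, 6 of the 10 genes were at least 2-fold lower in the control library without a number, where 16.5% of the genes tested were. The same 6 were at least 2-fold lower in labelled double-KO library 1, where 7.62% of genes were, and 5.31% of genes were so in both. *Fosl2* and *Jun* did not reach this limit and were 1.41 and 1.38 times lower in the control library. In labelled double-KO library 1 *Jun* was 1.63 times lower, while *Fosl2* was level with the others (156 CPM against a mean of 156).

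Some other immediate early genes were low in the same libraries. Of 32 further genes of this class tested, 7 were at least 2-fold lower in both libraries, namely *Egr2*, *Egr3*, *Klf2*, *Zfp36*, *Dusp1*, *Plk3* and *Ccn1*. *Zfp36*, which encodes the mRNA-decay factor tristetraprolin, was at 5.07, 40.8 and 45.8 CPM in control and at 5.71, 31.7 and 30.0 in labelled double-KO. *Egr3* was at 1.15, 7.04 and 9.66 CPM in control and at 1.84, 6.64 and 5.03 in labelled double-KO. The median log2 difference of the 32 genes was −0.86 in the control library and −0.69 in labelled double-KO library 1, beside −1.50 and −1.45 for the 10 members and 0.02 and −0.01 over all genes. Of the 21 upstream genes (kinases, SRF and CREB factors) 4 were at least 2-fold lower in the control library and 0 in both, and of the 11 other AP-1 family genes 3 and 0, beside 16.5% and 5.31% of all genes. *Fosl1*, one of these 3, was at 0.712, 3.34 and 3.02 CPM in control.

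Other lists also differed in these libraries. Fibroblast markers, with 6 of 7 genes in the tables, summed to 22.2 FPKM in the control library without a number and to 184 and 161 in controls 1 and 2, and to 22.7, 46.6 and 48.6 in the labelled double-KO libraries. In *Nf2*-KO they summed to 1157 to 1236 FPKM and in labelled *Rasa1*-KO to 397 to 427. *Col3a1* had the most reads of the list there. In *Nf2*-KO 5 of the 6 rose and 1 fell, beside 20.6% and 22.2% of all genes. In labelled *Rasa1*-KO the same numbers stand beside 19.7% and 22.2%. *Dcn* fell, to 33.9 to 38.4 CPM and 27.2 to 28.6. Controls 1 and 2 had 73.6 and 76.9 CPM, and the control library without a number 31.9. In labelled double-KO library 1 *Dcn* was at 15.1 CPM against 12.8 and 13.4. The 13 heat shock genes summed to 2452 FPKM in the control library without a number against 1783 and 1499 in the others, and to 2069 in labelled double-KO library 1 against 1646 and 1816. Epithelial markers (6 of 7 in the tables) summed to 3518 FPKM in the control library without a number against 2655 and 2049 in the others, to 3816 in labelled double-KO library 1 against 3454 and 3553, and to 2890 to 4338 in the remaining groups. Abundant keratins such as *Krt8* weigh most in these sums, and single markers differed. In labelled double-KO library 1 *Krt8* was at 3391 CPM against 2825 and 2758, but *Epcam* at 23.6 against 42.7 and 41.5. *Krt7* was there at 50.2 CPM against 103 and 98.3. The median log2 difference of the list was 0.24 in the control library and −0.42 in labelled double-KO library 1. Immune markers (3 of 7, without *Cd3e* and *Adgre1*) summed to 4.31 FPKM against 6.71 and 6.83 in control, to 5.19 against 11.1 and 12.4 in labelled double-KO, and to 11.1 to 16.5 in the remaining groups. Over the 12 libraries endothelial markers (2 of 5, without *Cdh5*) summed to 0.123 to 0.390 FPKM. In bulk RNA fewer cells of a type and less RNA per cell cannot be told apart, and the part of these lists in the low values was not tested.

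**Figure D3:**
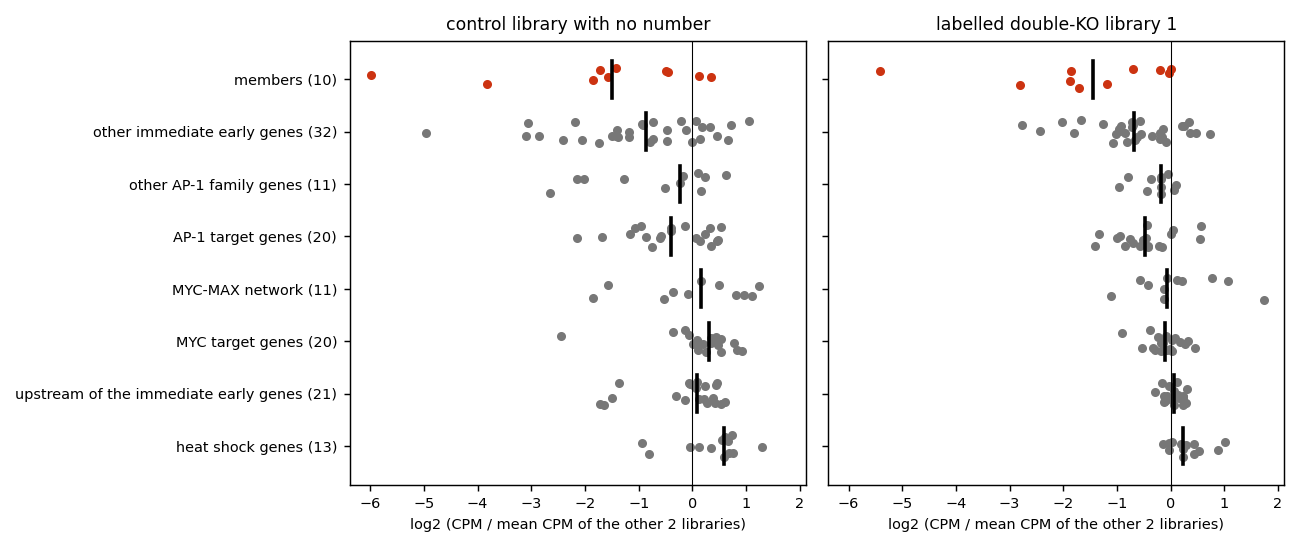
Log2 ratio of CPM in the library that stands apart to the mean CPM of the other 2 libraries of its group (x axis), for the control library without a number (left) and labelled double-KO library 1 (right), with 1 point per gene, lists on the y axis with their number of genes, and black bars at the medians. The 10 members, in red, have medians of −1.50 and −1.45, while the heat shock genes have medians of 0.59 and 0.23.

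The comparison of *Nf2*-KO with control asks how loss of *Nf2* changed these genes. *Junb* and *Fosl2* rose and *Jun* fell, and 3 of the 10 genes passed, 2 higher and 1 lower, where 42.8% of all genes passed (20.6% higher and 22.2% lower). *Junb* changed by a log2 fold change of 0.72 ± 0.14 (SE; 1.64-fold; adjusted p = 0.00141, edgeR quasi-likelihood test), *Fosl2* by 0.47 ± 0.13 (adjusted p = 0.0114) and *Jun* by −0.54 ± 0.18 (adjusted p = 0.0331). *Atf3* and *Myc* were above every control library with log2 differences of 1.05 ± 0.43 and 1.08 ± 0.43, but missed the threshold (adjusted p = 0.0703 and 0.0602). *Egr1* differed by −0.999 ± 0.81 and *Fosb* by −0.47 ± 1.14, and neither passed (adjusted p = 0.338 and 0.76). Over the 10 genes the median log2 fold change was 0.067, beside −0.070 over all genes.

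Without the 2 libraries that stand apart, 9 of the 10 passed in this comparison, 4 higher and 5 lower, where 67% of all genes passed. This left 2 libraries each in control and labelled double-KO. Leaving out libraries picked from the same values narrowed the errors, for *Fosb* from 1.14 to 0.10. *Egr1* fell by 1.53 ± 0.25 on the log2 scale (adjusted p = 0.000156), *Fosb* by 1.04 ± 0.10 (adjusted p = 2.19e-06), *Ier2* by 0.87 ± 0.11 (adjusted p = 1.63e-05), *Jun* by 0.68 ± 0.08 (adjusted p = 1.24e-05) and *Fos* by 0.23 ± 0.08 (adjusted p = 0.02). *Junb* rose by 0.76 ± 0.13, *Atf3* by 0.69 ± 0.08, *Myc* by 0.68 ± 0.15 and *Fosl2* by 0.33 ± 0.08. The calls on *Egr1*, *Fosb*, *Ier2*, *Fos*, *Atf3* and *Myc* thus passed in the reduced set and not in the full set, and *Fos* has the opposite sign in the full set (0.11 ± 0.43).

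In the libraries labelled *Rasa1*-KO 4 members passed against the same 3 controls. *Junb* rose by 0.93 ± 0.14 (adjusted p = 0.000283), *Atf3* by 1.17 ± 0.44 (adjusted p = 0.0495) and *Myc* by 1.17 ± 0.43 (adjusted p = 0.0454), and *Jun* fell by 0.96 ± 0.18 (adjusted p = 0.00169). These 4 of 10, 3 higher and 1 lower, stand beside 41.9% of all genes (19.7% higher and 22.2% lower). The calls on *Atf3* and *Myc* lie at the threshold. *Egr1* differed by −1.12 ± 0.81, *Fosb* by −0.48 ± 1.14 and *Fos* by 0.28 ± 0.43, none of which passed. The median over the 10 genes was 0.018, beside −0.076 over all genes.

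Without the 2 libraries that stand apart, 8 of the 10 passed, 3 higher and 5 lower, where 65.9% of all genes passed. *Egr1* fell by 1.66 ± 0.25 (adjusted p = 8.88e-05), *Jun* by 1.10 ± 0.08, *Fosb* by 1.05 ± 0.10, *Ier2* by 0.80 ± 0.11 and *Fosl2* by 0.23 ± 0.08. *Junb* rose by 0.97 ± 0.13, *Atf3* by 0.81 ± 0.08 and *Myc* by 0.77 ± 0.15. *Fos* and *Jund* did not pass. With the labels exchanged, this comparison becomes the one of double-KO with control and only *Junb* is called in *Rasa1*-KO.

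In the libraries labelled double-KO only *Junb* passed, higher by 0.70 ± 0.14 (1.62-fold; adjusted p = 0.0113), so that 1 of 10 stands beside 6.46% of all genes (4% higher and 2.46% lower). *Fosl2* did not overlap between the groups but differed by 0.18 ± 0.13. *Myc* differed by 0.025 ± 0.42, *Atf3* by 0.017 ± 0.43, *Fos* by 0.20 ± 0.43 and *Egr1* by −0.41 ± 0.80, so changes of either sign remain within these errors. Without the 2 libraries that stand apart 3 of 10 passed, where 29.9% of all genes passed: *Junb* rose by 0.81 ± 0.14 (adjusted p = 0.00153), *Fos* rose by 0.26 ± 0.08 (adjusted p = 0.0356) and *Jun* fell by 0.37 ± 0.09 (adjusted p = 0.00888). Labelled double-KO library 1 set against the control library without a number, 1 library each and so with no test, gave log2 ratios of 0.59 for *Myc*, 0.56 for *Egr1*, 0.52 for *Fosl2*, 0.48 for *Junb*, 0.44 for *Fosb*, 0.028 for *Jund*, −0.099 for *Atf3*, −0.18 for *Fos*, −0.46 for *Ier2* and −0.62 for *Jun*. The deviations of control and labelled double-KO libraries with the same number in the table name were correlated in all 3 pairs (r = 0.626, 0.313 and 0.444). Control 2 with labelled double-KO 2 (r = 0.399) and control 1 with labelled double-KO 3 (r = 0.258), whose table-name numbers differ, also correlated. Deviations within a group balance each other, so the 2 libraries that stand apart enter every r, and a pairing was not tested. *Jun* was lower in the labelled double-KO library of each same-numbered pair. With the table-name numbers as a replicate block 2 of 10 passed, *Junb* at 0.70 ± 0.13 (adjusted p = 0.00682) and *Jun*, which fell by 0.46 ± 0.09 (adjusted p = 0.0132). The share of all genes that passed with this block was not counted.

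**Figure D4:**
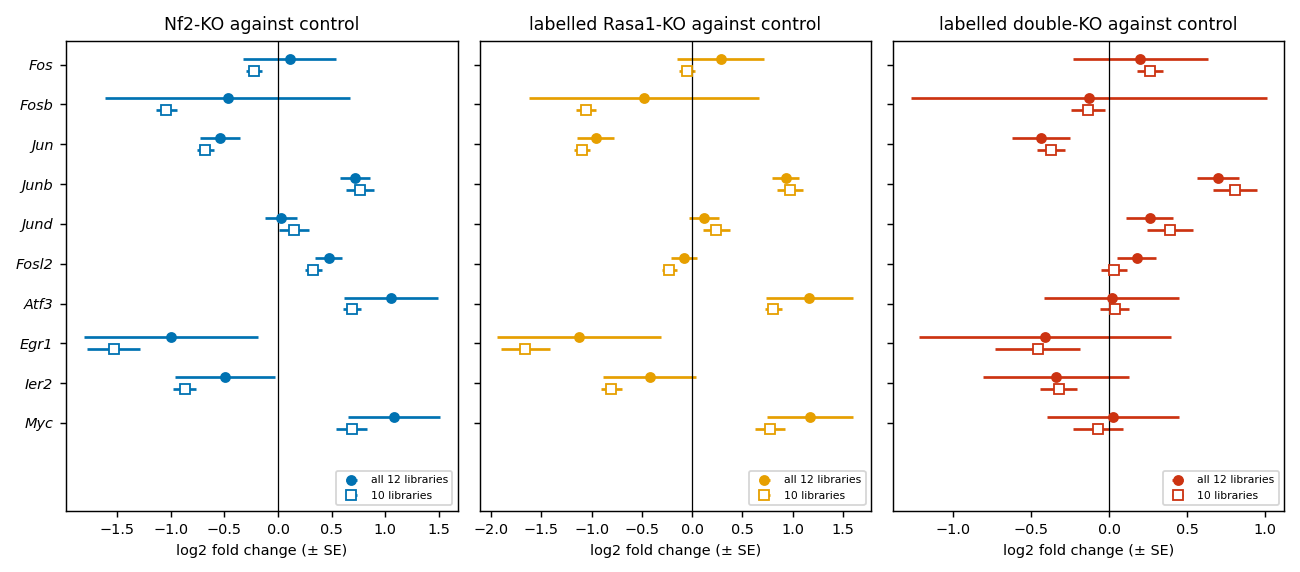
Log2 fold change against control with SE bars (x axis) for the 10 genes (y axis) in Nf2-KO, labelled Rasa1-KO and labelled double-KO. Filled circles use all 12 libraries and open squares leave out the control library without a number and labelled double-KO library 1, which shortens the bars of most genes, for Fosb in Nf2-KO from 1.14 to 0.10.

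The knockout groups were also set against each other. Between labelled double-KO and labelled *Rasa1*-KO only *Jun* passed, higher by 0.52 ± 0.18 in labelled double-KO (adjusted p = 0.0498), 1 of 10 beside 30.3% of all genes (16.3% higher and 14% lower). The sign of this difference turns with exchanged labels by construction. Between *Nf2*-KO and labelled *Rasa1*-KO only *Fosl2* passed, higher by 0.55 ± 0.13 in *Nf2*-KO (adjusted p = 0.0363), 1 of 10 beside 3.66% of all genes (1.74% higher and 1.92% lower), and its libraries did not overlap. Between *Nf2*-KO and labelled double-KO 0 of 10 passed by edgeR, where 32.2% of all genes passed (15.3% higher and 16.9% lower). *Fosl2*, *Atf3* and *Myc* had unadjusted edgeR p of 0.0406, 0.0352 and 0.0299. DESeq2 called 2 of the 10, and its share of all genes was not counted. Without the 2 libraries that stand apart, 8 of 10 passed between labelled double-KO and labelled *Rasa1*-KO, where 50.3% of all genes did, and 8 of 10 between *Nf2*-KO and labelled double-KO, where 50.6% did. In both of these comparisons *Fos*, *Fosb*, *Egr1*, *Ier2* and *Jun* were higher and *Atf3* and *Myc* lower in labelled double-KO, by 1.20 ± 0.25 for *Egr1* and −0.85 ± 0.15 for *Myc* against labelled *Rasa1*-KO. Between *Nf2*-KO and labelled *Rasa1*-KO 2 of 10 passed without both, where 19.2% of all genes did, *Fosl2* at 0.55 ± 0.07 and *Jun* at 0.42 ± 0.07 (adjusted p = 0.0016).

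Whether the labelled double-KO difference from control equalled the sum of the single ones was tested as a departure from additivity. *Jun* departed by 1.07 ± 0.26 and *Junb* by −0.95 ± 0.19, and *Atf3* and *Myc* by −2.20 ± 0.61 and −2.23 ± 0.60, 4 of 10 beside 52.4% of all genes. With exchanged labels *Jun* departed by 0.017, *Atf3* by 0.097, *Myc* by 0.066 and *Junb* by −0.48, and none of these 4 passed. *Fosl2* did pass with exchanged labels, with a departure of −0.73 ± 0.18 (adjusted p = 0.0341). With the labels as given but without the 2 libraries that stand apart, 8 of 10 passed, where 69% of all genes did, among them *Egr1* at 2.73 ± 0.35, *Jun* at 1.40 ± 0.11, *Myc* at −1.53 ± 0.21 and *Atf3* at −1.46 ± 0.12. The reduced set was not fitted with exchanged labels. In the full set the departures of *Jun*, *Junb*, *Atf3* and *Myc* thus passed only with labels that *Nf2* mRNA and the table names go against.

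The make-up of AP-1 mRNA within a library does not depend on scaling between libraries. *Junb* reads outnumbered *Jun* reads by 4.88, 3.70 and 2.76 to 1 in control, 8.58, 8.75 and 9.07 in *Nf2*-KO, 14.4, 12.5 and 14.3 in labelled *Rasa1*-KO and 10.4, 7.45 and 7.25 in labelled double-KO. The 9 knockout libraries all exceeded the controls, and labelled *Rasa1*-KO exceeded both other knockout groups. No test was run on this ratio. Per length, *Jun* made 8.34% to 14.0% of the JUN family in control and 3.35% to 3.84% in labelled *Rasa1*-KO. In the FOS family *Fosl1*, a growth-factor-induced member that is not one of the 10, made 0.728% to 1.28% in control and 2.18% to 6.34% in the knockout libraries. *Fosl2* made 32.7% of the family in the control library without a number and 42.8% in labelled double-KO library 1, where *Fos* and *Fosb* were low, and 15.8% to 25.6% elsewhere.

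**Figure D5:**
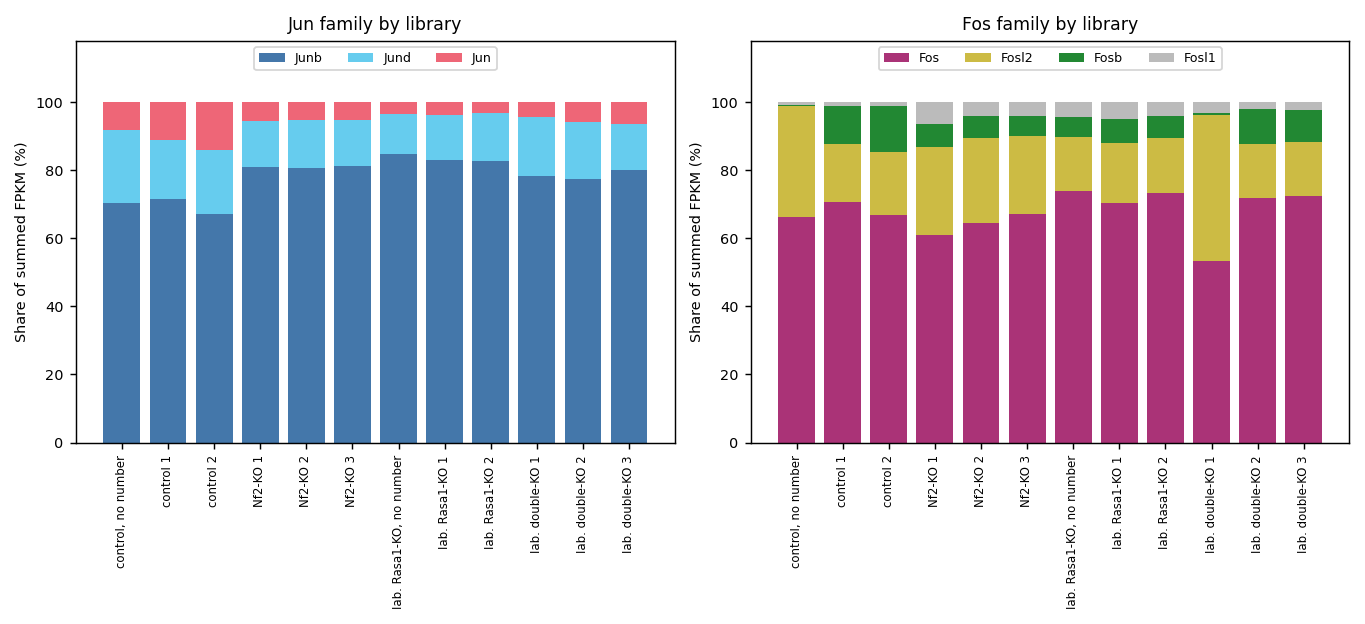
Stacked bars of the share of summed FPKM (%) of each JUN gene (left) and each FOS gene (right) in each of the 12 libraries. Jun falls from 8.34% or more in the controls to 6.36% or less in the knockout libraries, and Fosb almost vanishes in the control library without a number (0.487%) and in labelled double-KO library 1 (0.599%).

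The remaining AP-1 genes and the genes that AP-1 proteins act on were counted next. Beside these and the lists that follow, 20.6% of all genes rose and 22.2% fell in *Nf2*-KO. The shares were 19.7% and 22.2% in labelled *Rasa1*-KO and 4% and 2.46% in labelled double-KO. Without the 2 libraries that stand apart 67%, 65.9% and 29.9% of all genes passed in either direction. Medians over all genes were −0.070, −0.076 and −0.035, and no list was tested against these shares. Of 11 other AP-1 family genes tested, 5 rose and 2 fell in *Nf2*-KO and likewise in labelled *Rasa1*-KO, and 1 rose in labelled double-KO. *Fosl1* rose by 2.27 ± 0.47 in *Nf2*-KO and by 2.16 ± 0.47 in labelled *Rasa1*-KO, *Maff*, a small MAF protein, by 1.19 ± 0.09 and 1.34 ± 0.09, and *Jdp2*, a repressor of AP-1, by 1.41 ± 0.18 and 1.09 ± 0.18. *Maff* also rose by 0.47 ± 0.09 in labelled double-KO. Of 20 AP-1 target genes 15 rose and 5 fell in *Nf2*-KO, 13 rose and 4 fell in labelled *Rasa1*-KO and 9 rose and 1 fell in labelled double-KO, with median log2 fold changes of 1.30, 1.02 and 0.70. These counts were, without the 2 libraries that stand apart, 15 and 5, 14 and 4, and 13 and 2. *Mmp3*, a stromelysin, went from 10.1 ± 1.53 CPM in control to 101 ± 8.12 in *Nf2*-KO, 79.7 ± 1.71 in labelled *Rasa1*-KO and 26.5 ± 6.48 in labelled double-KO. *Areg*, an EGF receptor ligand, rose by 2.64 ± 0.17 and 2.84 ± 0.17 in *Nf2*-KO and labelled *Rasa1*-KO, while *Ivl*, a keratinocyte envelope gene, fell by 2.84 ± 0.22 and 2.67 ± 0.22.

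The further immediate early genes were not uniform. Of 32 tested, 13 rose and 3 fell in *Nf2*-KO, 14 rose and 1 fell in labelled *Rasa1*-KO and 3 rose in labelled double-KO, with median log2 fold changes of 0.48, 0.27 and −0.060. Without the libraries that stand apart the counts were 15 and 13, 16 and 11, and 10 and 6. *Ccn1*, a matricellular YAP target, rose by 3.21 ± 0.52 in *Nf2*-KO and 1.84 ± 0.50 in labelled *Rasa1*-KO, and *Gadd45b* by 2.42 ± 0.15 and 2.47 ± 0.16. *Egr2*, a paralog of *Egr1*, rose in *Nf2*-KO (1.76 ± 0.43; adjusted p = 0.00673). It was at 11.7, 12.9 and 14.1 CPM there, at 9.77, 9.73 and 9.77 in labelled *Rasa1*-KO and at 1.82, 4.72 and 4.94 in control. *Nab2*, a co-repressor of EGR proteins and itself an EGR target, rose by 0.89 ± 0.20 and 0.74 ± 0.20 in *Nf2*-KO and labelled *Rasa1*-KO, and *Nab1* fell by 0.31 ± 0.11 in *Nf2*-KO. In labelled double-KO neither passed (0.39 ± 0.20 and 0.07 ± 0.11).

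Of 21 upstream genes, 8 rose and 6 fell in *Nf2*-KO, 6 rose and 5 fell in labelled *Rasa1*-KO and 3 rose in labelled double-KO. *Map2k1*, the kinase MEK1 that activates ERK, rose in all 3, by 1.29 ± 0.14, 1.24 ± 0.14 and 0.64 ± 0.14. *Crem*, a CREB-family factor, fell by 0.86 ± 0.17 and 0.95 ± 0.17 in *Nf2*-KO and labelled *Rasa1*-KO. Heat shock genes were mixed, with 4 up and 3 down, 3 up and 4 down and 2 up of 13, and *Hspa1b* fell by 1.05 ± 0.13 in both *Nf2*-KO and labelled *Rasa1*-KO and rose by 0.65 ± 0.12 in labelled double-KO.

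The MYC network moved on both sides of *Myc*. *Mycn* and *Mycl*, its paralogs, fell, with log2 fold changes of −2.08 ± 0.48 and −1.82 ± 0.37 in *Nf2*-KO and of −1.49 ± 0.47 and −2.55 ± 0.38 in labelled *Rasa1*-KO. *Mxi1*, which competes with MYC for MAX, rose by 1.33 ± 0.10, 1.32 ± 0.10 and 0.91 ± 0.10 in *Nf2*-KO, labelled *Rasa1*-KO and labelled double-KO. Of the 11 genes, 3 rose and 3 fell, 4 rose and 3 fell, and 1 rose. Of 20 MYC target genes, 11 rose in *Nf2*-KO, 8 in labelled *Rasa1*-KO and 2 in labelled double-KO, and 0 fell by edgeR. When the 2 libraries that stand apart were left out, 12 rose and 1 fell, 13 rose and 1 fell, and 6 rose and 1 fell. *Ldha*, a glycolytic enzyme, rose by 1.46 ± 0.21, 1.43 ± 0.21 and 1.09 ± 0.20, and *Npm1*, a nucleolar protein, by 1.22 ± 0.22 and 1.34 ± 0.22 in *Nf2*-KO and labelled *Rasa1*-KO.

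The genes whose levels followed a member most closely over the 12 libraries were found by Pearson's r of log2 CPM. *Fosb* was among the 3 closest to *Fos* (r = 0.97, with *LOC115486982* 0.98 and *Apol8* 0.96), *Egr3* among the 3 closest to *Egr1* (0.98, with *Pygm* 0.98 and *Bcl2l11* 0.97), and *Gpr137b-ps* was closest to *Myc* (0.99, before *Urml* 0.98 and *Prickle1* 0.98) and among the 3 closest to *Atf3* (0.98, with *Stab1* 0.99 and *Gpr137b* 0.98). *Jun* was closest to *Slc22a21* (0.97), *LOC102633973* (0.97) and *Ankrd23* (0.96). Among the members, *Fos*, *Fosb*, *Egr1* and *Ier2* had pairwise r of 0.84 to 0.97, *Atf3* and *Myc* 0.96, and *Jun* and *Junb* −0.70. These values describe 12 libraries in which the same 2 low libraries enter every pair, and nothing about control of these genes was tested.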

How the data were processed

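Per the labels and the study's methods, total RNA was sequenced after rRNA removal with a stranded paired-end kit. Trimmomatic 0.38 for trimming, HISAT2 2.1.0 for alignment to mm10, SAMtools 1.9 and StringTie 2.1.3b with RefSeq genes are named by the authors and the submitters' processing notes. The deposited tables, 1 per library, hold raw counts, FPKM, TPM and a log2 value per gene, all made by the authors. They list only genes with at least 1 count in every library. The deposited TPM and log2 values were not used.

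Counts were scaled by TMM (factors 0.946 to 1.15), filtered with filterByExpr (18053 of 18926 genes) and tested with edgeR 4.0.16 (R 4.3.3, quasi-likelihood, all 12 libraries, Benjamini-Hochberg over all genes, threshold 0.05). DESeq2 1.42.0 and limma 3.58.1 gave alternatives. Log2 CPM used a prior count of 2. On simulated data for *Nf2*-KO against control, edgeR called 42 of 100 genes changed 2-fold, 85 of 100 changed 4-fold and 8 of 17853 unchanged ones. The simulation gave each gene the same spread in every group and held no libraries that stand apart, so these rates need not hold for the real libraries.

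Libraries were grouped by genotype label. Replicates of a group differed by more than counting error in every pair, and each counts as 1 library. The members and gene lists were chosen with earlier results of these data known. All 10 members are named. For each list and comparison with control, up to 4 genes with the largest change that passed and did not overlap could be named, or the 2 most abundant if none passed, and the text gives a part of these. Counts of genes with lower levels in the 2 libraries that stand apart, and list genes named there, were chosen after the values were seen. Library depth limits few values here, since the lowest member count was 98.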

Additional observations from a re-analysis of the deposited data

Results flagged for a closer look

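For 4 genes the difference of labelled double-KO from control departed from the sum of the *Nf2*-KO and labelled *Rasa1*-KO differences (edgeR quasi-likelihood test of the interaction). The log2 departure was 1.07 ± 0.26 for *Jun* (SE; adjusted p = 0.00492), −0.95 ± 0.19 for *Junb* (adjusted p = 0.0016), −2.20 ± 0.61 for *Atf3* (adjusted p = 0.0106) and −2.23 ± 0.60 for *Myc* (adjusted p = 0.00904). With the labels of *Rasa1*-KO and double-KO exchanged, as *Nf2* mRNA and the table names have them, the departures were 0.017, −0.48, 0.097 and 0.066 with adjusted p of 0.984, 0.183, 0.959 and 0.972, while *Fosl2*, which did not pass with the labels as given, departed by −0.73 ± 0.18 (adjusted p = 0.0341). Groups of 3 libraries are too small for a test of single outlying libraries, so the 2 libraries that stand apart are described in the report by their values.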

How the results depend on the processing

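The number of the 10 genes called with TMM and edgeR was 3 in *Nf2*-KO, 4 in labelled *Rasa1*-KO and 1 in labelled double-KO against control, 1 in labelled double-KO against labelled *Rasa1*-KO, 1 in *Nf2*-KO against labelled *Rasa1*-KO, 0 in *Nf2*-KO against labelled double-KO and 4 for non-additivity. RLE size factors and no filter on low counts gave the same counts. In that order, leaving out both libraries that stand apart gave 9, 8, 3, 8, 2, 8 and 8. Beside these, 67%, 65.9%, 29.9%, 50.3%, 19.2%, 50.6% and 69% of all genes passed. Shares for the fit with TMM and edgeR are given with each comparison above. For the other alternatives the share of all genes called was not counted, so their counts are not a result about these 10 genes. A replicate block by the number in the table name gave 9, 7, 2, 6, 2, 6 and 8, and a replicate block by the number in the title gave 3, 4, 0, 2, 0, 0 and 4. Neither numbering was shown to pair libraries. By title 10 of 14 same-numbered pairs had deviations from the group means correlated at 0.1 or less, and by table name 9 of 14. Among the table-name numbers only control and labelled double-KO correlated in all 3 pairs. Some differently numbered libraries of these groups correlated too (r = 0.399 and 0.258). Exchanged labels gave 3, 1, 4, 1, 0, 1 and 1, and fits of only the groups compared 2, 2, 0, 5, 4 and 3 for the 6 pairs. DESeq2 gave 5, 4, 1, 3, 1, 2 and 4, and limma on log2(FPKM + 1) or log2(FPKM + 0.1) 3, 3, 1, 0, 1, 0 and 4. A rule of 3-fold and raw p under 0.05 gave 0 in every pair and 2 for non-additivity, and 1.5-fold with the adjusted p gave 1, 4, 1, 0, 0, 0 and 4. With 1 library left out at a time the counts ranged from 2 to 5, 2 to 5, 0 to 2, 0 to 4, 0 to 1, 0 to 3 and 4 to 5. The number of members that spread over 2-fold among controls was 6, also in FPKM and without TMM, and 0 to 6 with 1 control left out, 0 being without the library that has no number.

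Values that turned sign and passed in the main fit, the alternative fit or both were few. *Fos* passed in the alternative fits only. In *Nf2*-KO it went to −0.33 (block by table name) and −0.23 (without both libraries). *Fos* between labelled double-KO and labelled *Rasa1*-KO went to 0.31 (without both), and its non-additivity to 0.60 and 0.54. Exchanged labels turned *Jun* between these groups to −0.52, by construction, and the non-additivity of *Atf3* and *Myc* to 0.097 and 0.066. A further 108 values of uncalled genes changed sign without passing in either fit. The causes were not tested.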
